A study of Homo sapiens with 9 samples.

Results

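FOXO1, FOXO3 and FOXO4, the FOXO transcription factor genes read here, and a set of genes they are known to activate were followed by RNA sequencing in a B cell lymphoma line under a GSK-3 inhibitor. The members were 10 genes taken by symbol: the 3 factors and the targets CCNG2, IRS2, PIK3IP1, TXNIP, KLF2, KLF6 and ARRDC3. Of these, 9 had a row matched by identifier among the 60234 gene identifiers of the count table, and all 9 were among the 15847 genes tested. TXNIP, an arrestin-like inhibitor of thioredoxin, had no row that the reference tables paired with its symbol and is not analysed here, which may be a matter of the identifier alone. KLF2 passed the filter on low counts through the untreated libraries alone.

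The cells were Ramos, an established EBV-negative Burkitt lymphoma line, grown in RPMI with serum, antibiotics and glutamine. They were left untreated (0 h) or exposed to the GSK-3 kinase inhibitor CHIR99021 at 3 µM, with RNA taken after 3 h and 6 h. Each time had 3 libraries, with 46359911 to 52880876 reads in genes per library. No untreated culture was sampled at 3 h or 6 h, so the inhibitor and the time in culture cannot be told apart, and a single cell line was used. The series calls the replicates biological, but separate cultures are not stated, so p-values measure only the spread between these libraries, which may be technical.

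FOXO factors are forkhead proteins that switch on genes of cell cycle arrest, cell death, autophagy and nutrient stress. Growth factor and antigen receptor signals act through PI3K and the kinases AKT and SGK, which phosphorylate FOXO proteins; YWHA adaptor proteins then hold them in the cytoplasm. In germinal centre B cells FOXO1 is needed for the dark zone programme. FOXO activity is set largely by where the protein lies in the cell, and neither FOXO protein nor its phosphorylation was measured here.

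The 8 B cell markers all had reads in every group, with a summed level of 2616 to 2870 CPM (read counts scaled to library depth with TMM factors). The 8 markers of T and NK cells summed to at most 1.09 CPM, the 8 myeloid markers to at most 0.300 CPM and the 8 epithelial and fibroblast markers to at most 0.0358 CPM; the T cell genes CD3D and CD2, the myeloid genes FCN1, S100A8 and S100A9 and the epithelial genes EPCAM and CDH1 were at 0 in every library. Untreated replicate 3 stood apart from the other untreated libraries, with a chi-square of 33.1 and 29.7 per degree of freedom against replicates 1 and 2, which differed from each other by 1.75. At 3 h replicate 6 (8.76 and 8.45 against 2.74 between the other two) and at 6 h replicate 10 (14.0 and 11.3 against 6.15) were the farthest from their groups, by less. Counts without untreated replicate 3 stand beside those of each list.

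Directions depend on how libraries are scaled. With TMM factors 10505 genes differed between 3 h and 0 h at an edgeR adjusted p under 0.05, 49.5% of them higher. That share was 36% with upper-quartile factors and 31.8% with library size alone, which moved the median log2 fold change of all genes from -0.013 to -0.17 and -0.22. At 6 h the share went from 50.5% to 39.2% and 32.8%, and the median from 0.017 to -0.13 and -0.22. A rise smaller than that shift is marked as such where it is given. The shares of all genes beside each list are with TMM factors. List counts with library size alone are to be read beside the 31.8% and 32.8% given here.

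KLF2 is left out of the counts that follow, since a gene that enters the test through its untreated libraries alone had to be lower in the others. The remaining 8 members passed against 0 h at both times. At 3 h, 4 rose (FOXO1, FOXO3, PIK3IP1, ARRDC3) and 4 fell (FOXO4, CCNG2, IRS2, KLF6). Of all genes tested, 66.3% passed at 3 h, 32.8% higher and 33.5% lower, so a passing gene was common in these data. At 6 h, 3 of the 8 rose and 5 fell, against 35.7% and 35% of all genes (70.8% in either direction), and FOXO3 had moved from the first group to the second. Between 3 h and 6 h, 5 members fell (FOXO3, FOXO4, CCNG2, IRS2, KLF6) and none rose, against 21.9% and 21.5% of all genes and 43.4% in either direction (edgeR; 5 fell and none rose with DESeq2 or limma-voom). The median log2 fold change of the 8 members was -0.027 at 3 h and -0.85 at 6 h, where the median of all genes was -0.013 and 0.017. For all 8 the untreated libraries overlapped neither treated group. Taken singly, the untreated libraries did not overlap those of 3 h for 70.2% of all genes, or those of 6 h for 71.7%. The share of all genes that overlapped neither group was not computed. Between 3 h and 6 h, 6 members had every 6 h library below every 3 h library (28% of all genes; 55.2% did not overlap in either direction). In bulk RNA, fewer cells that express a gene and less of its RNA per cell cannot be told apart.

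**Figure D1:**
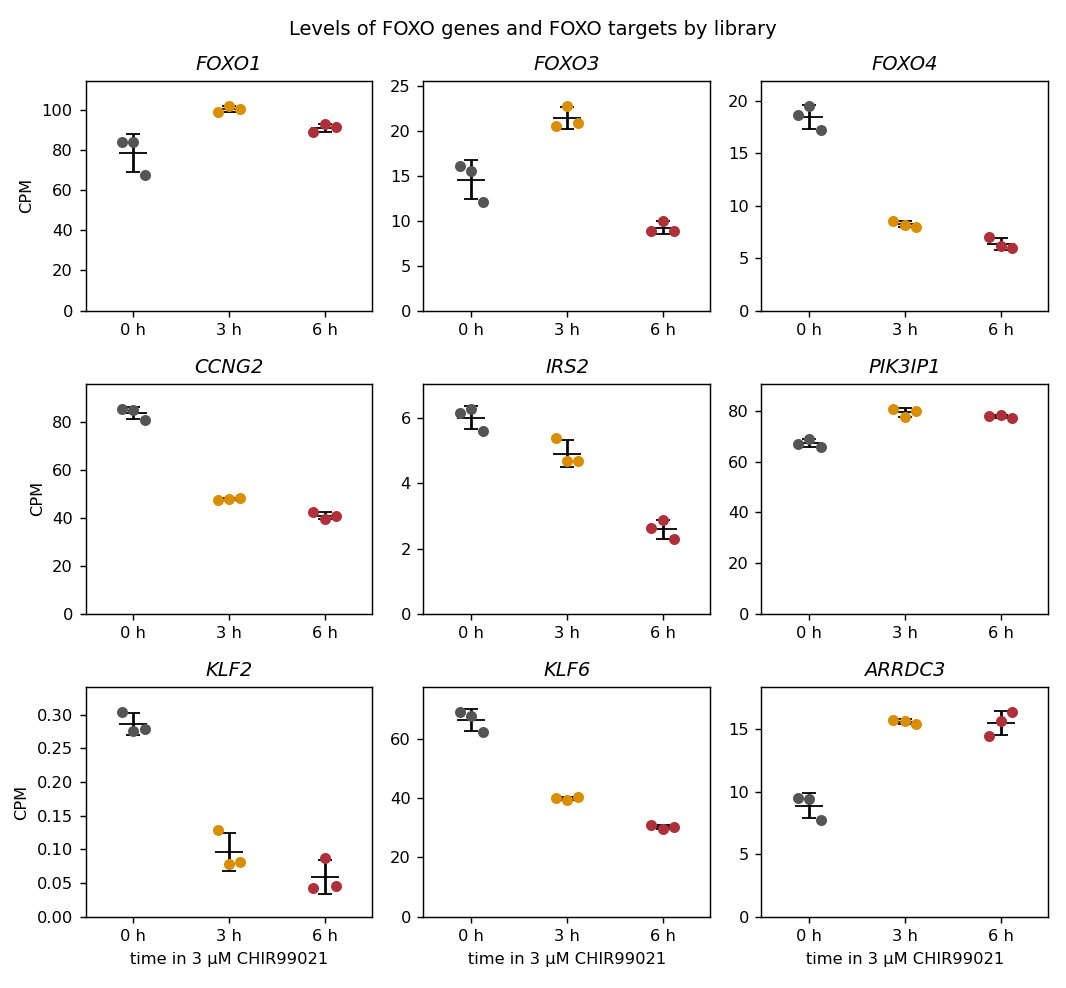
Each panel plots the level of a gene (CPM, from 0) in the 9 libraries at 0 h, 3 h and 6 h; points are libraries, and bars are the mean ± SD of 3. In every panel the untreated points lie apart from both treated groups, and FOXO3 alone lies above 0 h at 3 h and below it at 6 h.

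The 3 factor genes went separate ways. FOXO1 (ENSG00000150907), the most abundant, was at 84.0, 83.7 and 67.5 CPM in the untreated libraries, 98.7, 102 and 100 CPM at 3 h and 88.6, 92.8 and 91.1 CPM at 6 h. Both treated groups lay above all untreated libraries, and replicate 3 was the low one at 0 h. The log2 fold change was 0.35 (SE 0.071, edgeR adjusted p = 0.000571) at 3 h and 0.21 (SE 0.072, adjusted p = 0.0165) at 6 h. Without untreated replicate 3 these were 0.25 (adjusted p = 5.48e-05) and 0.11 (adjusted p = 0.0291). With library size alone they were 0.15 (adjusted p = 0.0763) and -0.022 (adjusted p = 0.794), so the 6 h direction rests on the scaling. The 6 h call was also lost with upper-quartile factors, with only the compared groups in the fit and without 6 h replicate 10.

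FOXO3 (ENSG00000118689) rose and then fell below its starting level. Its untreated libraries held 16.1, 15.5 and 12.1 CPM, the 3 h libraries 20.5, 22.8 and 20.8 CPM, and the 6 h libraries 8.81, 10.0 and 8.90 CPM. No group overlapped another. The log2 fold change was 0.55 (SE 0.097, edgeR adjusted p = 0.000189) at 3 h and -0.66 (SE 0.1, adjusted p = 6e-05) at 6 h, and -1.21 (SE 0.1, adjusted p = 1.04e-06) between 3 h and 6 h. Untreated replicate 3 was again the low library at 0 h. Both directions held in the 18 alternatives tried, which include leaving it out, and the 3 h rise was 0.35 with library size alone. Over these alternatives the log2 fold change lay between 0.35 and 0.62 at 3 h and between -0.89 and -0.58 at 6 h. FOXO3B, a near-identical pseudogene, had 14 to 50 reads per library against 386 to 1165 for FOXO3. Reads that align equally well to both would be in the summary entry for alignments that were not unique. That entry held 9.89% to 11.7% of reads and was set aside. How many of them came from FOXO3 is not known, so its level may be too low.

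FOXO4 (ENSG00000184481) fell at both times. It was at 18.6, 19.5 and 17.2 CPM untreated, 8.58, 8.2 and 7.96 CPM at 3 h and 7.00, 6.13 and 5.97 CPM at 6 h. The groups did not overlap, and most of the fall was in the first 3 h. Its log2 fold change was -1.16 (SE 0.077, edgeR adjusted p = 1.22e-08) at 3 h, -1.53 (SE 0.079, adjusted p = 7.79e-10) at 6 h and -0.37 (SE 0.083, adjusted p = 0.00255) between them. FOXO6, the remaining member of the family, had no reads.

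Per kilobase of exon, which allows a rough comparison between genes, FOXO1 led throughout. At 0 h it stood at 12.6 ± 1.51 CPM per kb (SD, n = 3), FOXO4 at 5.35 ± 0.338 and FOXO3 at 1.89 ± 0.282. At 3 h the levels were 16.1 ± 0.263 for FOXO1, 2.77 ± 0.160 for FOXO3 and 2.39 ± 0.0900 CPM per kb for FOXO4, so the order of the lower 2 was exchanged. At 6 h FOXO4 (1.85 ± 0.160) was again above FOXO3 (1.2 ± 0.0877 CPM per kb). That order rests on the exon lengths (3.45 kb for FOXO4, 7.72 kb for FOXO3), since in CPM FOXO3 (9.25) was above FOXO4 (6.37). The lengths are from GENCODE release 29 (GRCh38), while the build listed for the counts is hg19. The FOXO1 share of the 3 transcripts was 62.3% to 64.3% untreated, 75.4% to 76.2% at 3 h and 81.8% to 83.5% at 6 h, with no overlap between groups. The FOXO4 share went from 25.8% to 28.7% at 0 h to 9.90% to 11.7% at 6 h. These shares do not depend on the scaling between libraries, and they were not tested apart from the fits above.

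**Figure D2:**
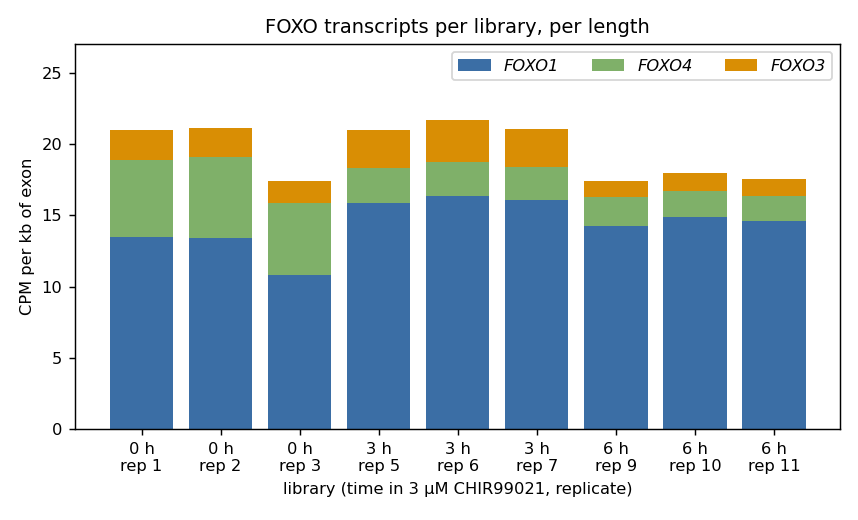
Stacked bars give the level per kb of exon (CPM per kb, from 0) of FOXO1, FOXO4 and FOXO3 in each of the 9 libraries. The FOXO1 part grows from 63.4% of the bar on average at 0 h to 82.7% at 6 h, while the FOXO4 part shrinks from 27.1% to 10.5%.

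The stretches upstream of the 3 factor genes are shown because the genes share a family and moved apart; each is the 150 bases before the most upstream RefSeq start site (GRCh38.p14), which lie in no annotated exon of GENCODE v29. FOXO1 is on chr13:40666642-40666791 (minus strand), FOXO3 on chr6:108559675-108559824 (plus strand) and FOXO4 on chrX:71095701-71095850 (plus strand). Their GC contents are 84.7%, 77.3% and 63.3%, and none of the 3 motifs named further on lies in them.
FOXO1: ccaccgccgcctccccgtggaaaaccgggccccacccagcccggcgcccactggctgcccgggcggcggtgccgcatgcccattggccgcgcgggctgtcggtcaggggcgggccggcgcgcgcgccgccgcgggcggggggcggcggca
FOXO3: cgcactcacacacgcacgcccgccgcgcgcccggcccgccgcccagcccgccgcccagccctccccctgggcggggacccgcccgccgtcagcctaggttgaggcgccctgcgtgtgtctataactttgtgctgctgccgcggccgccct
FOXO4: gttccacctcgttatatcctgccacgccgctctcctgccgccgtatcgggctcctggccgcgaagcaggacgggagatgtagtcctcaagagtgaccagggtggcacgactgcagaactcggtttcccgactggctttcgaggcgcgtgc

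Of the targets that act on PI3K signalling, the activator fell and the inhibitor was slightly higher. IRS2 (ENSG00000185950), the adaptor that couples insulin and cytokine receptors to PI3K, was at 6.15, 6.29 and 5.62 CPM untreated, 5.38, 4.68 and 4.68 CPM at 3 h and 2.64, 2.87 and 2.28 CPM at 6 h. The groups did not overlap, and the larger step came after 3 h. Its log2 fold change was -0.30 (SE 0.097, edgeR adjusted p = 0.0151) at 3 h, -1.21 (SE 0.11, adjusted p = 1.52e-07) at 6 h and -0.92 (SE 0.11, adjusted p = 1.75e-05) between 3 h and 6 h. The 3 h call was lost without untreated replicate 2, 3 h replicate 6 or 3 h replicate 7; the highest adjusted p over its 18 alternatives was 0.28, against a minimum fold of 1.2.

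PIK3IP1 (ENSG00000100100), a membrane protein that binds and restrains the catalytic subunit of PI3K, was at 66.8, 69 and 65.9 CPM untreated, 80.8, 77.5 and 80.1 CPM at 3 h and 78.0, 78.3 and 77.3 CPM at 6 h. Both treated groups lay above the untreated one and overlapped each other. The log2 fold change was 0.24 (SE 0.045, edgeR adjusted p = 0.000304) at 3 h and 0.21 (SE 0.045, adjusted p = 0.000782) at 6 h. The rises rest on the scaling: with library size alone the values were 0.039 (adjusted p = 0.415) and -0.023 (adjusted p = 0.637), and neither call held with upper-quartile factors. PIK3IP1 did not pass between 3 h and 6 h (-0.029, SE 0.045, adjusted p = 0.634). Its antisense partner PIK3IP1-AS1 had 1 to 22 reads per library, against 3352 to 4010 for PIK3IP1.

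The cell cycle target CCNG2 (ENSG00000138764), a cyclin associated with arrest rather than division, fell. It was at 85.4, 84.9 and 80.6 CPM untreated, 47.4, 47.8 and 48.3 CPM at 3 h and 42.4, 39.4 and 40.6 CPM at 6 h. The treated groups lay far below the untreated one, and the 6 h libraries below those of 3 h. The log2 fold change was -0.81 (SE 0.049, edgeR adjusted p = 5.04e-09) at 3 h, -1.03 (SE 0.049, adjusted p = 3.48e-10) at 6 h and -0.23 (SE 0.049, adjusted p = 0.00202) between 3 h and 6 h. Its relative CCNG1, from the list of quiescence and antiproliferative genes, was at 168 ± 2.46 CPM untreated, 140 ± 1.28 CPM at 3 h and 112 ± 5.10 CPM at 6 h (SD, n = 3).

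KLF6 (ENSG00000067082), a Krüppel-like zinc finger factor with antiproliferative activity, fell at both times. It was at 69, 67.5 and 62.2 CPM untreated, 40.0, 39.3 and 40.3 CPM at 3 h and 30.9, 29.6 and 30.1 CPM at 6 h. The groups did not overlap. Its log2 fold change was -0.73 (SE 0.052, edgeR adjusted p = 2.21e-08) at 3 h, -1.13 (SE 0.053, adjusted p = 2.74e-10) at 6 h and -0.40 (SE 0.053, adjusted p = 4.67e-05) between them.

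KLF2 (ENSG00000127528), a factor of lymphocyte quiescence and trafficking, was close to the limit of detection in these cells. It had 17, 16 and 15 reads in the untreated libraries, 6, 4 and 4 at 3 h and 2, 4 and 2 at 6 h, while a library with no read could still hold 0.0567 to 0.0647 CPM (3 counts of its total). Pooled over libraries, 48 reads at 0 h against 14 at 3 h made it 2.99-fold lower, and against 8 at 6 h 4.86-fold lower. These folds are a description, since only the untreated libraries carried KLF2 past the filter, which set its direction. No p or interval is given for it for that reason. It is also absent from the fit that requires 1 CPM in 3 libraries. The pseudogenes KLF2P2 and KLF2P4 had up to 11 and 3 reads in a library, so at this depth the assignment of the KLF2 reads is uncertain.

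ARRDC3 (ENSG00000113369), an alpha-arrestin that leads surface receptors to ubiquitin ligases, rose at both times. It was at 9.50, 9.42 and 7.73 CPM untreated, 15.8, 15.6 and 15.4 CPM at 3 h and 14.4, 15.6 and 16.4 CPM at 6 h. Every treated library was above every untreated one, and the 3 h and 6 h libraries overlapped. The log2 fold change was 0.81 (SE 0.082, edgeR adjusted p = 9.29e-07) at 3 h and 0.80 (SE 0.083, adjusted p = 9.33e-07) at 6 h. It was 0.72 and 0.70 without untreated replicate 3, and over all alternatives lay between 0.61 and 0.85 at 3 h and between 0.56 and 0.85 at 6 h.

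**Figure D3:**
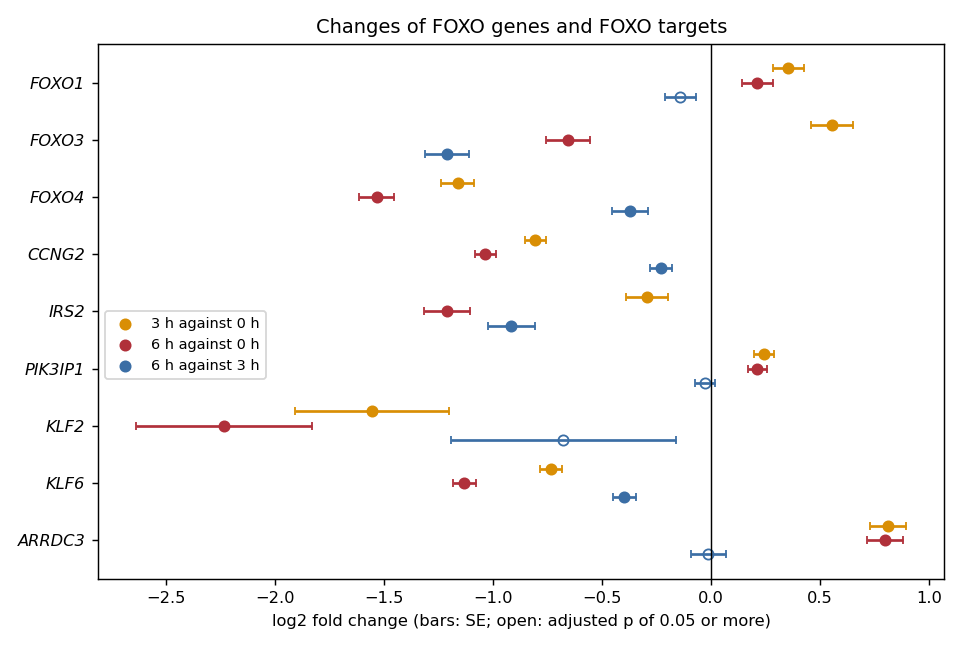
Log2 fold changes (horizontal axis) of the 9 measured members in the 3 comparisons between times; bars are the SE, and open points have an edgeR adjusted p of 0.05 or more. KLF2, whose direction the filter on low counts sets, has the widest bars and lies lowest against 0 h, ARRDC3 lies highest there at 0.81 and 0.80, and FOXO3 is on the right of 0 at 3 h and on the left at 6 h. The 3 h and 6 h comparisons share the untreated libraries.

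The promoters were searched because the targets are known to be bound by FOXO factors and because MYC, which the series concerns, binds E-boxes. The motifs were GTAAACA (the FOXO consensus, TGTTTAC on the other strand), CAAAACA (the insulin response element, TGTTTTG on the other strand) and CACGTG (the E-box). RefSeq promoter windows of 250 bases before to 50 after a start site held them in 3.42%, 4.92% and 7.26% of 35116 windows, and at least 1 window of 4.19%, 6.05% and 8.77% of 27305 genes did. All 10 members had windows, 16 in all. The FOXO consensus lay in a window of 4 members (FOXO4, PIK3IP1, TXNIP and ARRDC3), the insulin response element in that of IRS2 alone, and the E-box in those of CCNG2 and KLF6. No match overlapped another.

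The sites of the measured members are shown with flanks, 30 bases each, on the strand of the gene, with the motif in capitals (build GRCh38.p14, from RefSeq). They lie at chrX:71095863-71095892 (plus), chr22:31292454-31292483 (minus), chr5:91380108-91380137 (minus), chr13:109786605-109786634 (minus), chr4:77157165-77157194 (plus) and chr10:3785289-3785318 (minus), in the order printed. The first base of the motif is at 24, 17, -29, -40, -30 and -97 from the start site of its window; the sites of PIK3IP1 and ARRDC3 belong to the downstream of 2 start sites.
FOXO4: cccggcgagtgGTAAACAgagacgtcagga
PIK3IP1: taaagagaggcTGTTTACcagaacagcata
ARRDC3: agcccggcactTGTTTACcacggcgcggcc
IRS2: gagtcacatgtTGTTTTGctcttcttagtt
CCNG2: tccgcggggagtCACGTGccccgccccctt
KLF6: cgcggggcgagtCACGTGgggggaggggga
The genes with the FOXO consensus did not move alike, since FOXO4 fell while PIK3IP1 and ARRDC3 were higher. Both genes with an E-box fell, as did 33.5% of all genes at 3 h and 35% at 6 h. A match of letters is a description of the window and not of binding, which was not measured.

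To place each member, its profile of log2 CPM over the 9 libraries, centred on its own mean, was compared with those of the other tested genes of at least 1 CPM by the root mean square difference. The nearest profile to FOXO4 was that of CDKN1B (0.072 log2 units), which encodes the kinase inhibitor p27 and is itself a FOXO target, followed by the phosphatase gene DUSP1 (0.073) and the secreted glycoprotein gene STC2 (0.074). The third nearest to CCNG2 was BCL6, the germinal centre repressor and a FOXO target (0.057), after the Polycomb gene CBX7 (0.031) and KCTD18 (0.043). FOXO3 lay nearest to BCOR, which encodes the corepressor partner of BCL6 (0.080), then to PLEKHM3 (0.13) and S1PR2, a germinal centre sphingosine phosphate receptor (0.14). BCOR had a log2 fold change of 0.46 at 3 h and -0.80 at 6 h.

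IRS2 lay nearest to TP53INP2 (0.075), an autophagy gene, POU2F2 (0.079), which encodes the B cell octamer factor OCT2, and RALGPS1 (0.079). KLF6 lay nearest to CCDC125, DENND5A and SGPP1 (0.039 each), ARRDC3 to AGPS (0.044), the nuclear pore gene NUP153 (0.046) and POLR3B (0.050), and FOXO1 to PUM2 (0.033), an RNA-binding repressor, DIAPH1 and TMEM245 (0.036 each). PIK3IP1 lay nearest to CCNK (0.028), IFT52 (0.031) and CCDC69 (0.036). KLF2 lay at 0.21 from GAB2, 0.22 from CHIT1 and 0.24 from APC2, on a profile of 2 to 17 reads per library. Its own root mean square distance from its mean was 0.95, and that of PIK3IP1 was 0.11. The distances are therefore not comparable between members. The median difference over all candidates ran from 0.25 for PIK3IP1 to 0.99 for KLF2. These profiles are given as a description.

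Other reported FOXO targets mostly fell. Of 38 listed, 37 had a row and 27 were tested. At 3 h, 18 of the 27 fell and 3 rose, against 33.5% and 32.8% of all genes. The median log2 fold change was -0.46 (all genes -0.013). At 6 h, 21 fell and 4 rose, against 35% and 35.7% of all genes, with a median of -0.88 (all genes 0.017). Between 3 h and 6 h, 16 fell and 2 rose, against 21.9% and 21.5% of all genes. The counts were 18 and 4 at 3 h and 21 and 4 at 6 h without untreated replicate 3, and 21 and 2 at 3 h and 22 and 3 at 6 h with library size alone. Most of all genes called also fell with library size alone, as given above, so the larger counts there do not add to the result.

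The genes that fell with the smallest p were MXI1, a MAX-binding antagonist of MYC, at -1.59 (SE 0.067) at 3 h and -1.94 (SE 0.069) at 6 h, and CDKN1B at -1.19 (SE 0.053) and -1.51 (SE 0.054). GABARAPL1, an autophagosome protein, followed at 3 h (-1.12, SE 0.053). TSC22D3, the leucine zipper protein GILZ that glucocorticoids and FOXO induce, followed at 6 h. Its level was 104 ± 3.82 CPM at 0 h, 91.7 ± 2.96 CPM at 3 h and 36.5 ± 2.02 CPM at 6 h (SD, n = 3), so most of its fall came after 3 h, as for IRS2. The 3 that rose at 3 h were BCL2L11, the death gene that encodes BIM, with a log2 fold change of 0.93 (SE 0.048), ATG14, of the autophagy lipid kinase complex (0.44, SE 0.077), and BNIP3, a mitophagy receptor (0.24, SE 0.049). BNIP3 did not pass at 3 h with upper-quartile factors (adjusted p = 0.152) or library size alone (adjusted p = 0.53). The same genes were at 0.79, 0.56 and 0.45 at 6 h. BBC3, also a death gene, had the largest fall of the list. It was at -4.00 (SE 0.17) at 3 h and -4.64 (SE 0.19) at 6 h, from 14.5 ± 1.65 CPM untreated (SD, n = 3).

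**Figure D4:**
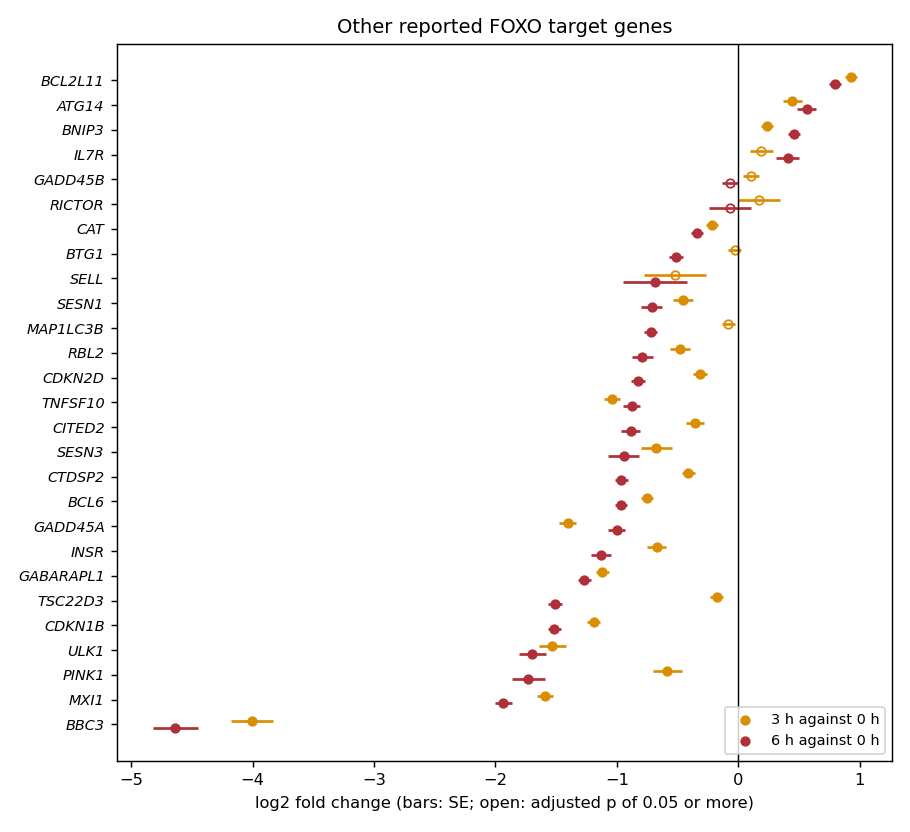
Log2 fold changes (horizontal axis) of the 27 tested genes in the list of other FOXO targets at 3 h and 6 h against 0 h, ordered by the 6 h value; bars are the SE, and open points have an edgeR adjusted p of 0.05 or more. Most points lie left of 0, where 18 genes fell at 3 h and 21 at 6 h (33.5% and 35% of all genes tested). BBC3 lies farthest to the left, at -4.00 and -4.64, and BCL2L11 farthest to the right, at 0.93 and 0.79.

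Quiescence and antiproliferative genes also mostly fell, and 4 of the 12 listed (CDKN1B, CDKN2D, RBL2 and BTG1) are in the list of FOXO targets too. Of 11 tested, 8 fell and 2 rose at 3 h (median -0.32), and 9 fell and 1 rose at 6 h (median -0.60), where 33.5% and 35% of all genes fell and 32.8% and 35.7% rose. The counts were the same without untreated replicate 3, though the genes behind the 6 h count differed. RBL1, a pocket protein of the retinoblastoma family, was the second that rose at 3 h. That rise did not pass with upper-quartile factors (adjusted p = 0.52) or library size alone (adjusted p = 0.975). Without untreated replicate 3, RBL1 newly passed as lower at 6 h (edgeR adjusted p = 0.0378, against 0.465 with it). TOB1 no longer passed there (0.0566, against 0.0488). CDKN2C, the kinase inhibitor p18, had a log2 fold change of -0.75 (SE 0.055) at 3 h. The transcriptional repressor HBP1 was at -0.85 (SE 0.083) at 3 h. BTG2, an antiproliferative adaptor of mRNA deadenylation, was at -0.83 (SE 0.045) and CDKN2D at -0.83 (SE 0.059) at 6 h. TOB2, of the same family as BTG2, rose by 0.57 (SE 0.064) at 3 h and 0.64 (SE 0.064) at 6 h.

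Upstream of FOXO, PI3K and AKT signalling genes passed about as often as all genes at 3 h (62.5% against 66.3%) and somewhat more often at 6 h (79.2% against 70.8%). Of 24 tested, 9 rose and 6 fell at 3 h and 11 rose and 8 fell at 6 h, with medians of 0.088 and 0.025. Of all genes, 32.8% rose and 33.5% fell at 3 h, and 35.7% and 35% at 6 h. With library size alone more fell than rose (4 rose and 9 fell at 3 h, 7 and 10 at 6 h, medians of -0.12 and -0.21), so the balance of this list rests on the scaling. Most of all genes called fell under that scaling too, as given above. Without untreated replicate 3, 11 rose and 7 fell at 3 h, and 10 rose and 10 fell at 6 h. IRS1, the relative of IRS2, rose while IRS2 fell: it went from 77.0 ± 8.84 CPM to 136 ± 5.85 CPM at 3 h and 180 ± 6.24 CPM at 6 h (SD, n = 3; log2 fold changes 0.83 and 1.23). SGK1, a kinase that phosphorylates FOXO proteins, rose by 2.20 (SE 0.12) at 3 h and 1.67 (SE 0.12) at 6 h from 0.846 ± 0.0743 CPM. PDPK1, the kinase that activates AKT and SGK, rose at 3 h (0.69, SE 0.07). PIK3CD, the leukocyte catalytic subunit of PI3K, fell by 0.89 (SE 0.055) at 3 h and by 0.98 (SE 0.055) at 6 h on the log2 scale. INPP5D, the lipid phosphatase SHIP1 that opposes PI3K, was at -0.95 (SE 0.058) at 6 h.

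Genes whose products modify or carry FOXO proteins were mostly higher at 3 h. Of 25 tested, 19 rose and 2 fell at 3 h (median 0.35), where 32.8% of all genes rose and 33.5% fell (median -0.013). At 6 h 12 rose and 5 fell (median 0.13), against 35.7% and 35% of all genes (median 0.017). The share that passed was 84% at 3 h, against 66.3% of all genes, and 68% at 6 h, against 70.8%. Without untreated replicate 3, 19 rose and 3 fell at 3 h and 13 rose and 5 fell at 6 h. With library size alone 15 rose and 4 fell at 3 h, but 7 rose and 9 fell at 6 h (median -0.10). YWHAG, an adaptor that binds phosphorylated FOXO, rose by 0.70 (SE 0.055) at 3 h, and YWHAE by 0.66 (SE 0.047) at 6 h. SKP2, a ubiquitin ligase subunit that targets FOXO1, rose by 0.49 (SE 0.047) at 3 h and 0.74 (SE 0.047) at 6 h, and the methyltransferase PRMT1 by 0.83 (SE 0.057) at 6 h. The kinase gene MAPK8 (JNK1) was higher at 3 h (0.36, SE 0.065) and lower at 6 h (-0.41, SE 0.066). At 6 h the acetyltransferase KAT2B was at -0.71 (SE 0.071) and the Hippo kinase STK3, of the MST family that acts on FOXO, at -0.65 (SE 0.076).

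Of 14 other KLF genes with a row, 6 were tested. At 3 h 3 rose and 1 fell, against 32.8% and 33.5% of all genes. At 6 h 2 rose and 3 fell, against 35.7% and 35%. At 3 h 66.7% passed, against 66.3% of all genes, and at 6 h 83.3%, against 70.8%. KLF13 was at 0.61 (SE 0.061) and KLF10 at 0.48 (SE 0.054) at 3 h. At 6 h they were at 0.20 and 0.17, and neither passed with upper-quartile factors or with library size alone, where they were at -0.036 and -0.066. KLF15 fell from 91.4 ± 5.52 CPM to 15.5 ± 1.21 CPM at 3 h and was at 32.3 ± 0.614 CPM at 6 h (SD, n = 3). With library size alone 2 rose and 2 fell at 3 h, and none rose and 3 fell at 6 h. Without untreated replicate 3 the counts were 3 and 3, and 2 and 4. These include a gene beyond the 6 tested, let in by the filter on low counts once that library was left out. Its fall may be set by the filter and carries no weight. Among the 6, only KLF12 changed its call against 0 h, to lower at 3 h (-0.54, edgeR adjusted p = 5.78e-06).

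Around ARRDC3 and TXNIP, 14 of 17 listed alpha-arrestin, ubiquitin ligase, thioredoxin and glucose-sensing genes were tested. At both times 8 rose and 4 fell, with medians of 0.23 and 0.24, and 85.7% passed, against 66.3% and 70.8% of all genes. Of all genes, 32.8% rose and 33.5% fell at 3 h, and 35.7% and 35% at 6 h. Without untreated replicate 3, 10 rose and 4 fell at 3 h, where the thioredoxin genes TXN (adjusted p = 0.245 with it and 0.0176 without) and TXN2 (0.317 and 0.0441) newly passed, and 8 rose and 4 fell at 6 h. With library size alone 4 rose and 4 fell at 3 h, and 2 rose and 4 fell at 6 h. The alpha-arrestin ARRDC2 rose by 0.58 (SE 0.051) and the ligase WWP2 by 0.63 (SE 0.046) at 3 h, whereas ARRDC1 was at -0.35 (SE 0.072). TXNRD1, thioredoxin reductase, was at 0.55 (SE 0.054) at 3 h and 0.59 (SE 0.054) at 6 h. NEDD4, a ligase that binds arrestins through PPxY motifs, fell by 0.74 (SE 0.14) at 3 h and 1.56 (SE 0.15) at 6 h, from 9.43 ± 1.88 CPM. ARRDC4 and MLXIPL, which are linked to glucose sensing, had at most 0.0283 CPM as a group mean and were not tested.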

How the data were processed

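RNA sequencing of 9 Ramos libraries was deposited by the authors as raw read counts per Ensembl gene. The submitters' processing notes list GSNAP, HTSeq 0.6.0, limma 3.30.0 and the build hg19, without roles. The annotation release and strand setting are not given in the sources used here. Overlapping and antisense genes are therefore uncertain. The 5 HTSeq summary entries were set aside; 67.6% to 70.9% of reads lay in genes.

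Symbols and exon lengths (GENCODE release 29, GRCh38) were matched by gene identifier. Genes were kept by filterByExpr (minimum count 10, total 15), which left 15847. edgeR 4.0.16 in R 4.3.3 fitted a robust quasi-likelihood model with TMM factors and a mean per time to all 9 libraries (6 residual degrees of freedom). Two-sided p-values had a threshold of 0.05 after Benjamini-Hochberg adjustment across the whole table. SE is the log2 fold change divided by the square root of F.

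The members and lists were chosen with earlier results of these data known. The text names all members and, from each list, up to 3 genes per direction with the smallest p at 3 h and 6 h. BBC3, CCNG1, ARRDC4, MLXIPL, RBL2, BTG1, TOB1, TXN and TXN2, named beyond this, were chosen after their values were seen. The 3 nearest profiles per member used log2(CPM + 0.01). Also tried were limma-voom (limma 3.58.1), DESeq2 1.42.0, other scalings, filters, sample sets, a minimum fold of 1.2 and leaving out each library; list counts under other scalings and without untreated replicate 3, and member counts without KLF2, were added after seeing the data. The fit was tested on simulated counts. Figures used matplotlib 3.10.9.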

Additional observations from a re-analysis of the deposited data

Results flagged for a closer look

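For 5 members the effect at 6 h differed from the effect at 3 h by a test of the difference itself, which is the edgeR comparison of 6 h with 3 h (43.4% of all genes tested passed it). The difference was -1.21 on the log2 scale for FOXO3 (adjusted p = 1.04e-06), whose effects had opposite signs, -0.92 for IRS2 (adjusted p = 1.75e-05), -0.40 for KLF6 (adjusted p = 4.67e-05), -0.37 for FOXO4 (adjusted p = 0.00255) and -0.23 for CCNG2 (adjusted p = 0.00202). All 3 libraries of 6 h lay below all 3 of 3 h for each of these genes.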

How the results depend on the processing

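Over 18 alternatives per comparison (for KLF2 17 against 0 h and 16 between 3 h and 6 h), 460 of the members' log2 fold changes kept direction and side of the threshold, 17 no longer passed, 2 newly passed and 3 changed sign. All KLF2 values are among the 460 and are no sign of stability, since the filter on low counts set its direction against 0 h. The sign changes were FOXO1 and PIK3IP1 at 6 h against 0 h with library size alone (-0.022 and -0.023, adjusted p = 0.794 and 0.637) and ARRDC3 at 6 h against 3 h without 6 h replicate 9 (0.039, adjusted p = 0.764; range -0.054 to 0.039 over libraries left out). Against a minimum fold of 1.2, the comparison of 6 h with 3 h gave 2504 genes and 3 members, in place of 6871 and 5, because that test asks for a larger change. Leaving out each library in turn gave 9747 to 10761 genes at 3 h, 10601 to 11578 at 6 h and 5739 to 8103 between them, with 8 to 9, 8 to 9 and 5 to 6 members, KLF2 included; FOXO1 joined the last without untreated replicate 3 (adjusted p = 0.0051). The cause was not tested. No paired analysis was possible because the groups share no replicate numbers. Depth limits KLF2 alone among the measured members.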
